A study of Drosophila melanogaster with 135 samples.

Results

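Heads of 30-day-old male flies carrying a deletion in Polycomblike (Pcl) were compared with heads of WT males of the same age, and the members of the comparison were the 9049 of 17023 annotated genes whose mean normalized read count over both groups was at least 10. Each group had 3 mRNA-seq libraries. The study made CRISPR deletion lines in subunits of Polycomb repressive complexes, crossed them into the WT background (labelled genotype 5905) and asked how heterozygous mutants and WT differ in old tissue. Its head data comprised one set of 5 groups that were normalized together (WT, Pcl, esc labelled esc289, E(z) labelled E(z)239 and Su(z)12 labelled Su(z)12253) and double mutants of esc with E(z) and of Pcl with Su(z)12 (labelled Pcl421; Su(z)12253), each double mutant with a WT group of its own. The labels of the 3 Pcl head libraries read Pcl421, Pcl422 and Pcl423, while the study's methods name 1 Pcl allele. Whether the 3 libraries represent 1 deletion or several was not given in the sources used here, and nothing in the labels says that replicates came from separate cultures, so the tests measure the spread between these libraries. Pcl muscle and its own WT muscle control, both of the same age, served as a second tissue.

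Pcl is an accessory subunit of Polycomb repressive complex 2 (PRC2), the enzyme that methylates histone H3 on lysine 27. E(z) is the catalytic subunit, and Esc and Su(z)12 are core subunits needed for activity. H3K27 trimethylation marks silenced developmental genes, the homeotic genes among them, and is read by PRC1.

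The heads were sequenced to between about 4030000 and 5430000 gene-assigned reads per library. The deposited table held group means, and the counts of single libraries were recovered from the digits of those means for 7648 members (84.5%). For 5823 of these, only 1 set of counts fitted in each group. For the others, the set taken was the only one within a window around the group mean. That window limits the spread that limma measures. The remaining 1401 members, 1106 of which had a mean over 1000 in one of the groups, have group means only and no test. Libraries 1, 2 and 3 of a group are numbered here by falling size factor and do not correspond to the replicate numbers of the labels. In a principal component analysis of the 15 head libraries of the set, Pcl libraries lay between 8.1 and 8.7 on the second component (15.2% of the variance). WT and esc libraries lay between -7.4 and -4.2. The E(z) libraries, at 2.2 to 4.7, and the Su(z)12 libraries, at -3.3, 2.5 and 1.8, fell between these and Pcl. On the first component (27.8%), 1 Su(z)12 library stood apart. Defining markers of photoreceptors, neurons, glia and hemocytes were present in both groups, with log2 ratios of the summed levels of -0.11, -0.02, -0.13 and 0.03, and ninaE, the main rhodopsin, had a mean of 138200 in WT heads against 82.0 in WT muscle. The sums for fat body, muscle and gut markers had log2 ratios of 0.10, 0.11 and 0.38. Among the fat body markers 2 were at least 1.5-fold higher and 1 lower, and among the muscle markers 1 was higher. Of the 6 testis and accessory gland markers found, 3 were below 1 in both head groups. In whole heads, fewer cells of a type and less RNA per cell cannot be told apart.

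Most genes differed little. The median log2 ratio of Pcl over WT heads was 0.0006, and 81.2% of members lay within 1.2-fold. A difference of at least 1.5-fold was found for 163 members higher in Pcl heads (1.8%) and 169 lower (1.87%), 3.67% in all. By limma, with an adjusted p below 0.05 over the 7648 tested members, 228 genes rose (2.98%) and 261 fell (3.41%), 6.39% together, and 1408 had an unadjusted p below 0.05. Among the members past 1.5-fold, 86 of the 144 tested higher ones and 81 of the 155 tested lower ones were called. For comparison, the other 2 WT head groups, centred on their median, differed from the WT group of the set by at least 1.5-fold for 3.06% and 2.53% of members, and the esc, E(z) and Su(z)12 heads, which share the WT control with Pcl, for 3.01%, 3.44% and 5.55%. At the edge of the membership rule, fln lay just outside with means of 11.05 in WT and 8.94 in Pcl heads, and CG13285 just inside with 11.03 and 9.01.

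**Figure D1:**
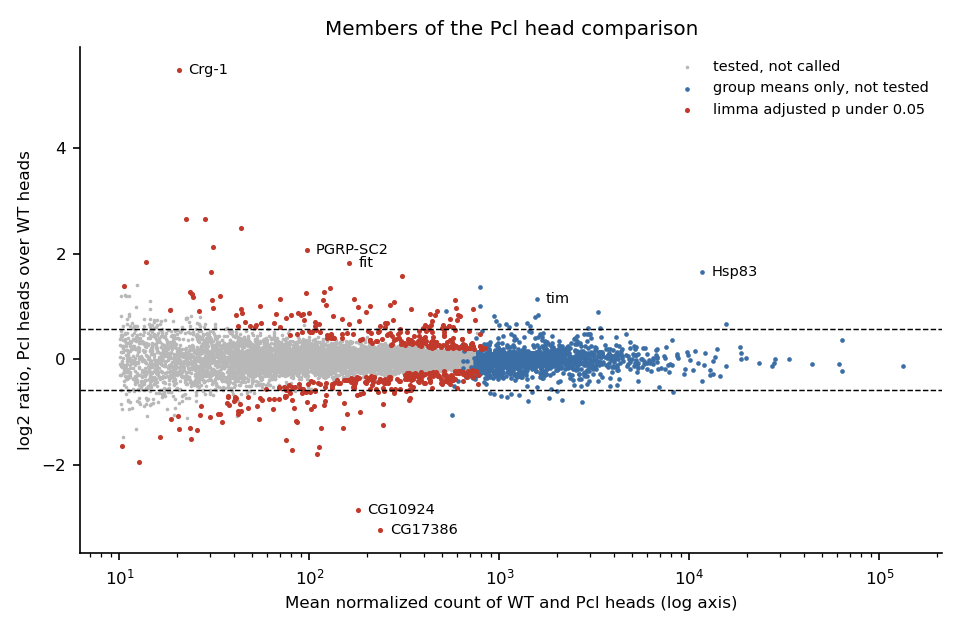
Log2 ratio of Pcl over WT heads for the 9049 members against their mean normalized count on a log axis. Red points are the 489 members called by limma, grey the tested members that were not called and blue the 1401 members with group means only; dashed lines mark 1.5-fold. Crg-1 had the highest ratio and CG17386 the lowest.

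The clearest group change was a rise of heat shock proteins and other chaperones. Heat shock proteins fold newly made or damaged proteins: Hsp83 is the fly Hsp90, Hsp70 and Hsp68 belong to the Hsp70 family, and Hsp23, Hsp26 and l(2)efl are small heat shock proteins that hold unfolded clients. Of 17 members of the heat shock list, 10 were at least 1.5-fold higher and 0 lower, with a median log2 ratio of 0.61 against 0.0006 for all members. Of the 10 that could be tested, limma called 6 higher and 0 lower.

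Hsp83 had the largest ratio among the abundant heat shock genes, with a mean normalized count of 5601 in WT and 17654 in Pcl heads, a 3.15-fold difference (log2 ratio 1.66) with a counting interval of 1.63 to 1.68. Its libraries could not be read, so it has no test. Hsp68 measured 182, 170 and 183 in the WT libraries and 472, 372 and 290 in the Pcl libraries. The groups did not overlap, as was the case for 22.7% of tested members, and Hsp68 rose 2.12-fold (log2 ratio 1.08, SE 0.12, limma adjusted p = 7.3e-06).

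Hsp26 measured 82.1, 55.9 and 30.3 in WT and 140, 164 and 101 in Pcl libraries. Every Pcl library was above every WT library, and the log2 ratio was 1.27 (SE 0.24, limma adjusted p = 0.0013, at most 0.035 when any library was left out). Hsp23 measured 63.2, 53.0 and 56.4 in WT against 109, 98.1 and 102 in Pcl libraries. It too did not overlap, at a log2 ratio of 0.84 (SE 0.14, limma adjusted p = 0.0005). The nearly identical inducible copies Hsp70Bb and Hsp70Bc, between which reads may be split arbitrarily, stood at means of 7.72 and 13.3 in WT and 48.5 and 74.2 in Pcl heads. Their log2 ratios were 2.65 (SE 0.30, limma adjusted p = 1.6e-05) and 2.48 (SE 0.44, limma adjusted p = 0.00047). Hsp70Bb reached the minimum mean through its Pcl level, so its place in the counts of the list and its test lean on the membership rule. With a pseudocount of 10 its log2 ratio was 1.72. For Hsp70Bc, 1 WT library stood at 29.4 and the others at 6.32 and 4.17.

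The remaining members named were chosen after their values were seen. The constitutive members were higher by smaller factors. Hsc70-4, the major cytosolic Hsc70, stood at 11986 in WT and 19069 in Pcl heads (log2 ratio 0.67), its endoplasmic reticulum relative Hsc70-3 at 2699 and 4053 (0.59), and the Hsp40 co-chaperone DnaJ-1 at 1130.5 and 1759 (0.64), all without a test. The small heat shock gene l(2)efl rose from libraries of 202, 167 and 221 to 378, 251 and 272, without overlap (log2 ratio 0.61, SE 0.13, limma adjusted p = 0.0052). Hsf encodes the transcription factor of the heat shock response. Its mRNA level was 387 in WT and 385 in Pcl heads (log2 ratio -0.01, limma adjusted p = 0.97).

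The cytosolic chaperonin, a ring that folds actin and tubulin, was taken up after its values were seen. All 7 of its measured subunits (Tcp-1 or CCT genes) were called higher by limma and 5 were past 1.5-fold, with log2 ratios of 0.54 to 0.84. Cctgamma had the largest change, with 306, 338 and 344 in WT and 630, 614 and 527 in Pcl libraries. The Pcl libraries all lay above the WT libraries (log2 ratio 0.84, SE 0.08, limma adjusted p = 7e-07). CG7033, the CCT2 subunit, measured 406, 424 and 441 in WT and 684, 665 and 631 in Pcl libraries, again without overlap (log2 ratio 0.64, SE 0.06, limma adjusted p = 1.5e-06). The lowest member of the ring, CG5525, had means of 308 and 446 (log2 ratio 0.54, SE 0.08, limma adjusted p = 0.00018).

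A pair of Hsp90 co-chaperones was also chosen after their values were seen, and no list of co-chaperones was counted. Hop, which links Hsp70 to Hsp90, had a mean of 524 in WT and 1054 in Pcl heads (log2 ratio 1.01, not tested), and CG1416, the fly homolog of the Hsp90 ATPase activator Aha1, measured 463, 505 and 518 in WT and 1031, 1021 and 817 in Pcl libraries. The latter did not overlap and rose 1.93-fold (log2 ratio 0.95, SE 0.08, limma adjusted p = 1.3e-07).

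**Figure D2:**
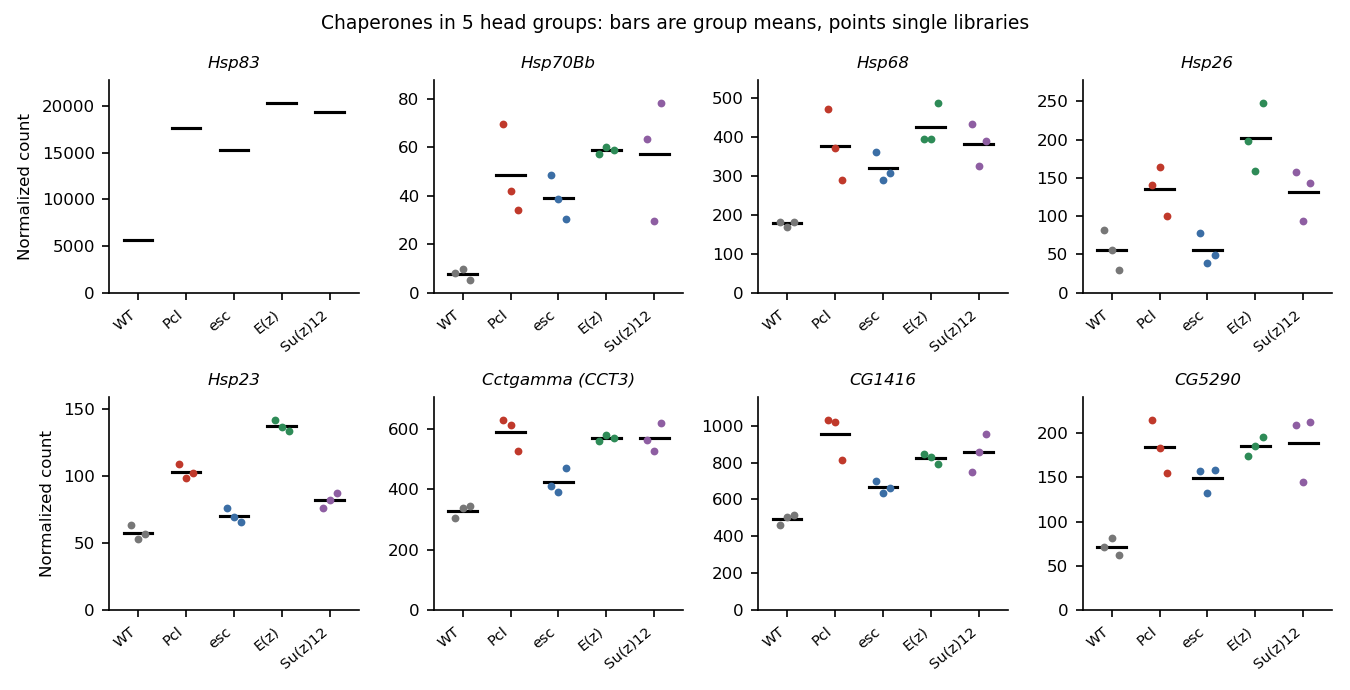
Normalized counts of 8 chaperone or co-rising genes in the 5 head groups of the set. Bars are group means and points the single libraries where they could be read; Hsp83 has means only, 5601 in WT and 17654 in Pcl heads.

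Heat shock factor binds promoters at arrays of a short inverted unit. Windows of 300 bases, from 250 before to 50 after the annotated start in Release 6, were searched on both strands for 3 units in alternating orientation (gaa, 2 free bases, ttc, 2 free bases, gaa, and its reverse complement, 13 bases in all). Such a match was present in 41 of the 8829 members' windows (0.464%) and in 3 of the 17 windows of the heat shock list, Hsp68, Hsp70Bb and Hsp70Bc. None of the 7 chaperonin windows held one. CG5290, one of the 15 genes with the largest rise, has no role given here and was added to the search after its values were seen. Hop, CG1416, mbf1, Cdc37, Hsc70Cb, CG6511 and CG3226, looked up beside it, held no match. CG5290 held one at its annotated start. The windows shown are those with a match among the heat shock list, the chaperonin genes and the genes looked up after their values were seen. Other members with a match are not shown. Capitals mark the matching bases, and each is written 5′ to 3′ on the strand of its gene.
Hsp68, chr3R:24057467-24057495, minus strand: tatTTCTCGAAATTTCCTGAACTTTCagt
Hsp70Bb, chr3R:12505727-12505753, plus strand: gcgcctcGAATGTTCGCGAAaagagcg
Hsp70Bc, chr3R:12509010-12509036, plus strand: gcgcctcGAATGTTCGCGAAaagagcg
CG5290, chr3L:17912546-17912572, minus strand: atttgcgGAACATTCGGGAActcccat
The Hsp68 window holds 3 overlapping matches that begin 182 bases before the start, and those of Hsp70Bb and Hsp70Bc begin 59 bases before it and are identical in the bases shown. Longer or looser forms of the element were not searched for, and the absence of this form says nothing about the factor. CG5290 measured 71.3, 81.4 and 62.6 in WT and 215, 183 and 155 in Pcl libraries. No library overlapped, and the gene rose 2.57-fold (log2 ratio 1.36, SE 0.13, limma adjusted p = 1.5e-06).

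Hsp83 was also high in the other mutants of the set. It stood at 15307 in esc, 20336 in E(z) and 19298 in Su(z)12 heads, which share the WT control. The median log2 ratio of the heat shock list was 0.17 in esc, 0.63 in E(z) and 0.51 in Su(z)12 heads, and that of the chaperonin subunits 0.25, 0.69 and 0.63, so the esc medians were the lowest. In a limma fit of Pcl against the mean of the other 3 mutants, Hsp68 had a log2 difference of -0.01 (adjusted p = 0.99) and Cctgamma of 0.19 (adjusted p = 0.21). CG1416 (0.29, limma adjusted p = 0.04) and l(2)efl (0.50, limma adjusted p = 0.043) were higher in Pcl than in that mean. Against the 2 WT head groups of the double mutants, each centred on the median of all members, the log2 ratio of Hsp83 in Pcl heads was 1.61 and 2.36, and the median over the list was 0.71 and 0.81. Pcl muscle, with controls of its own, had a list median of 0.78 and Pcl Su(z)12 heads, also with their own WT, of -0.02. Hsp83 had log2 ratios of 1.11 and 0.32 there, and CG1416 rose in muscle (0.60, limma adjusted p = 0.00013) but not past the threshold in Pcl Su(z)12 heads (0.06, limma adjusted p = 0.89).

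Immune genes formed the next group. PGRP-SC2, an amidase that breaks down peptidoglycan and dampens the Imd pathway, was the largest rise among members with a mean of at least 50. It measured 30.7, 53.9 and 26.1 in WT and 140, 152 and 176 in Pcl libraries. The groups were far apart, 4.23-fold (log2 ratio 2.08, SE 0.20, limma adjusted p = 7e-07). The other mutants of the set stood at 40.1 (esc), 25.7 (E(z)) and 28.2 (Su(z)12), and the limma difference of Pcl from their mean was 2.35 (adjusted p = 3.4e-06). Against the WT groups of esc E(z) and of Pcl Su(z)12 its centred log2 ratio was 1.17 and 2.92. Of 25 members of the list of immune recognition genes and Bomanins 4 were at least 1.5-fold higher and 0 lower, with a median of 0.08. PGRP-SA, a circulating recognition protein of the Toll pathway, had libraries of 64.1, 77.5 and 68.9 in WT and 125, 142 and 119 in Pcl heads (log2 ratio 0.88, SE 0.13, limma adjusted p = 0.00018), and its centred log2 ratio was 0.64 and, under 1.5-fold, 0.44 against these WT groups.

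Of 15 antimicrobial peptide members, 3 were at least 1.5-fold higher and 0 lower, and the same 3 of 12 tested were called by limma, all encoding peptides against Gram-negative bacteria. The list median was 0.24, beside 0.45 in esc, -0.13 in E(z) and -0.92 in Su(z)12 heads, which share the WT control. AttA, an attacin, measured 66.8, 329 and 66.8 in WT and 512, 532 and 332 in Pcl libraries. The Pcl libraries were all above WT, though one of them only just above WT library 2 (log2 ratio 1.57, SE 0.36, limma adjusted p = 0.0016). Dpt, the diptericin gene, measured 354, 470 and 374 in WT and 638, 888 and 827 in Pcl libraries, without overlap (log2 ratio 0.98, SE 0.10, limma adjusted p = 3.2e-06), and the centred log2 ratio was 0.65 and 2.05 against the other WT groups. Dro, drosocin, had means of 367 and 805 with 1 Pcl library at 414, close to the highest WT library of 401 (log2 ratio 1.13, SE 0.20, limma adjusted p = 0.0034, up to 0.066 with a library left out).

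WT library 2 was high for several of these peptides. CecA1, a cecropin, measured 32.5, 196 and 40.7 in WT and 135, 68.2 and 47.3 in Pcl libraries, and AttB, a near-identical neighbour of AttA with which it may share reads, 180, 862 and 206 in WT and 532, 421 and 269 in Pcl libraries. Both groups overlapped for each gene (limma adjusted p = 0.83 and 0.72). Without that library, 11 of the 12 tested peptides were past 1.5-fold higher, in place of 3, so the size of the group's difference depended on 1 WT library.

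In Pcl Su(z)12 heads the peptide list lay lower than in their WT, with a median of -1.93. Dpt measured 593, 160 and 145 in those WT libraries and 46.9, 8.75 and 26.1 in the double mutant, without overlap (log2 ratio -3.46, limma adjusted p = 0.0027). In Pcl muscle the list median was 1.24. AttA measured 59.5, 7.94 and 77.6 in WT muscle and 310, 413 and 495 in Pcl muscle (log2 ratio 3.07, limma adjusted p = 0.0011), and PGRP-SC2 measured 50.5, 42.7 and 61.6 in WT and 222, 125 and 231 in Pcl muscle (log2 ratio 1.90, limma adjusted p = 7.1e-05).

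The Turandot genes, secreted stress factors of the fat body, stood mostly lower. Their median over 4 members was -0.93, beside -1.5 in esc, -1.4 in E(z) and 0.74 in Su(z)12 heads, which share the WT control. TotM measured 206, 214 and 92.9 in WT and 34.3, 58.6 and 54.6 in Pcl libraries. The groups did not overlap (log2 ratio -1.80, SE 0.24, limma adjusted p = 8.2e-05), but against the WT groups of esc E(z) and of Pcl Su(z)12 the centred log2 ratio was -0.54, under 1.5-fold, and -0.87. TotC had means of 759.5 and 366, and TotA of 3463 and 1981, without a test. TotX, the fourth member of the list, was slightly higher at 247 and 323 (log2 ratio 0.39, SE 0.11, limma adjusted p = 0.044), but lower against either other WT group (-1.21 and -0.85).

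**Figure D3:**
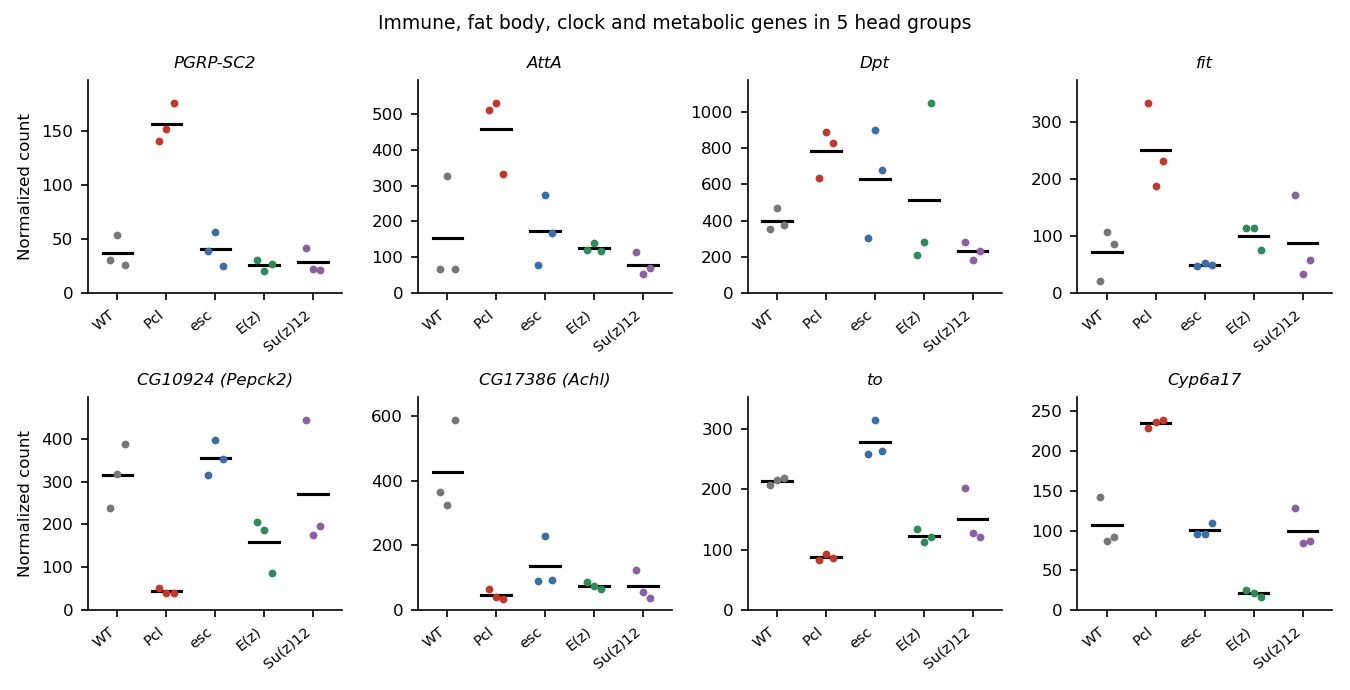
Normalized counts of 8 immune, fat body, clock and metabolic genes in the 5 head groups. Bars are group means and points single libraries; PGRP-SC2, fit and Cyp6a17 were highest in Pcl heads and CG10924 and CG17386 lowest, and 1 WT library lay high for AttA.

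Secreted products of the head fat body changed in both directions, and the list as a whole had a median of 0.00, with 3 of 20 members at least 1.5-fold higher and 2 lower. The gene fit, which encodes a satiety signal of the fat body, measured 19.9, 107 and 86.6 in WT and 334, 188 and 232 in Pcl libraries. It rose without overlap (log2 ratio 1.82, SE 0.37, limma adjusted p = 0.0011), and lay above the esc, E(z) and Su(z)12 means of 49.1, 101 and 87.4. The yolk protein gene Yp3 measured 206, 197 and 123 in WT and 327, 335 and 410 in Pcl libraries (log2 ratio 1.03, SE 0.14, limma adjusted p = 5.5e-05). Against the WT of esc E(z) the centred log2 ratio of Yp3 was 0.36, under 1.5-fold, and against that of Pcl Su(z)12 0.91, while that of fit was 4.11 and 1.97. The odorant binding protein gene Obp99b stood at 2315.5 and 4289 (log2 ratio 0.89, not tested). The gene takeout (to), which is expressed in the head fat body and is also a clock output, measured 208, 215 and 218 in WT and 82.4, 93.3 and 86.1 in Pcl libraries. Its groups were tight and far apart (log2 ratio -1.29, SE 0.11, limma adjusted p = 1.4e-07).

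Among 23 neuropeptide members 1 was at least 1.5-fold higher and 2 lower. Capa, which encodes capability peptides, measured 219, 246 and 233 in WT and 436, 418 and 504 in Pcl libraries (log2 ratio 0.96, SE 0.08, limma adjusted p = 3.8e-07). Ilp5, an insulin-like peptide of brain neurosecretory cells, measured 46.9, 53.0 and 33.4 in WT and 24.5, 20.3 and 20.6 in Pcl libraries. Both genes separated the groups, and Ilp5 fell by 1.03 on the log2 scale (SE 0.22, limma adjusted p = 0.0081, up to 0.057 with a library left out). Nplp3 had means of 1786 and 1029 (log2 ratio -0.80, not tested).

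Clock genes differed between the groups in opposite directions. In the fly clock, Clk and Cyc activate per, tim and vri, whose proteins feed back on them. The repressor gene tim stood at 976 in WT and 2159 in Pcl heads (log2 ratio 1.15, not tested), and vri at 719 and 1188 (0.72, not tested). For per the WT libraries were 366, 335 and 218 and the Pcl libraries 385, 622 and 662 (log2 ratio 0.86, SE 0.16, limma adjusted p = 0.0024, up to 0.052 with a library left out). Clk measured 379, 402 and 403 in WT and 309, 280 and 260 in Pcl libraries, lower without overlap (log2 ratio -0.48, SE 0.08, limma adjusted p = 0.00053).

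These differences did not hold against other WT heads. Against the WT groups of esc E(z) and of Pcl Su(z)12 the centred log2 ratios were 0.13 and -0.20 for tim, -0.17 and -0.28 for per, 0.15 and -0.42 for vri, and 0.22 and 0.06 for Clk. The directions for per and Clk were not kept with either group, and those for tim and vri with 1 of the 2. Hours of collection within the day were not given in the sources used here, and their part in the result was not tested. Over the 14 clock members the median was -0.05, with 3 at least 1.5-fold higher (tim, per and vri) and 1 lower, the clock output to.

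A pair of further genes tied to the clock in flies had large differences from the WT group of the set, and smaller ones from the other WT heads. CG17386 (Achl), a clock-controlled gene, had the lowest ratio of all members, with 366, 326 and 589 in the WT libraries and 63.7, 39.5 and 32.8 in the Pcl libraries (log2 ratio -3.24, SE 0.20, limma adjusted p = 2.1e-09). Against the WT groups of esc E(z) and of Pcl Su(z)12 its centred log2 ratio was -1.97 and -0.92. It also varied widely elsewhere, with means of 136, 74.6 and 72.9 in esc, E(z) and Su(z)12 heads and single libraries from 58.7 to 791 in Pcl Su(z)12 heads. Ubpy, a deubiquitinase that acts on Clk protein, stood at 437.7 in WT and 1138 in Pcl heads (log2 ratio 1.38, not tested), against 691, 1034 and 903 in the other mutants. Its centred log2 ratio was 0.70 and 0.39 against the other WT groups, the latter under 1.5-fold.

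Among metabolic genes the strongest difference was in CG10924 (Pepck2), one of the phosphoenolpyruvate carboxykinase genes of gluconeogenesis. It measured 238, 318 and 387 in WT and 52.0, 40.7 and 38.8 in Pcl libraries. No library overlapped, and the level fell 7.17-fold (log2 ratio -2.84, SE 0.15, limma adjusted p = 3.8e-10). The esc, E(z) and Su(z)12 heads stood at 356, 160 and 272, and Pcl differed from their mean by -2.41 (limma adjusted p = 2.2e-06). In the Pcl Su(z)12 heads the mean was 135 against 726 in their WT (log2 ratio -2.42, not tested), and in Pcl muscle the libraries of 355, 360 and 408 lay below the WT muscle libraries of 732, 666 and 793 (log2 ratio -0.96, limma adjusted p = 6.2e-06).

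By the 1.5-fold count and the list median, glycolysis, the pathway that the study followed, did not stand apart in Pcl heads. Of 37 members of the KEGG list of glycolysis and gluconeogenesis 0 were at least 1.5-fold higher and 1, Pepck2, was lower, with a median of 0.03. On this list 24 members lay above 0, only 17 could be tested, and limma called 0 of them higher and 1 lower. The study took an interest in this list from these libraries among others, so it is not independent of them. Triose phosphate isomerase, Tpi, stood at 1583 in WT and 1984 in Pcl heads (log2 ratio 0.33, counting interval 0.27 to 0.38), and glucose phosphate isomerase, Pgi, at 3248 and 3911 (0.27, 0.23 to 0.31), neither with a test. Against the other WT head groups the centred log2 ratios were 0.04 and 0.24 for Tpi and 0.02 and 0.40 for Pgi. The paper, with DESeq p-values below 0.05, reported both genes raised in heads and muscle of its long-lived PRC2 mutants. For both genes it also drew on qRT-PCR, ChIP-qPCR, protein blots, null mutations and transgenes, beside metabolite data. Its measures and the 1.5-fold count used here are therefore unlike. Nmdmc, a mitochondrial enzyme of folate metabolism, measured 282, 270 and 388 in WT and 203, 159 and 165 in Pcl libraries, without overlap (log2 ratio -0.84, SE 0.12, limma adjusted p = 0.00017).

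Cytochrome P450 genes, oxidases of hormones and foreign compounds, leaned lower. Of 68 members 2 were at least 1.5-fold higher and 9 lower, with a median of -0.17, and limma called 2 higher and 10 lower of 56 tested. Cyp6a2, known from insecticide resistance, measured 308, 435 and 284 in WT and 158, 144 and 135 in Pcl libraries. It fell without overlap (log2 ratio -1.24, SE 0.12, limma adjusted p = 1.9e-06) and Pcl lay below the esc, E(z) and Su(z)12 means of 642, 321 and 263. Cyp6a8 measured 97.5, 108 and 119 in WT and 48.0, 63.4 and 60.7 in Pcl libraries (log2 ratio -0.91, SE 0.14, limma adjusted p = 0.00041), and Cyp6a14 had means of 56.9 and 27.7 (log2 ratio -1.04, SE 0.21, limma adjusted p = 0.0038). Cyp6a17, which affects temperature preference in flies, went the other way, from 143, 86.3 and 91.8 to 229, 237 and 239 (log2 ratio 1.14, SE 0.14, limma adjusted p = 1.3e-05). E(z) heads stood at 21.1 for this gene, well under both, and the centred log2 ratio was 0.60 and 0.85 against the other WT groups.

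In many gene groups of the head few or no members were past 1.5-fold. Of 29 members of the phototransduction list, 25 neuronal, 12 glial and 11 hemocyte genes 0 were past 1.5-fold, with medians of -0.10, -0.08, -0.10 and -0.02. Limma called 2 of 5 tested phototransduction genes, 1 of 3 neuronal and 2 of 7 glial genes lower, 0 of these higher and 0 of 6 hemocyte genes, and 23 of the 25 neuronal genes lay below 0. Against the other WT groups the neuronal median was 0.16 and 0.12. Of 83 cytoplasmic ribosomal protein genes 0 were past 1.5-fold, but 81 lay above 0 (median 0.13, and -0.10 and 0.20 against the other WT groups). Of 72 mitochondrial ribosomal protein genes 0 were past 1.5-fold (median 0.02), and of 105 genes of oxidative phosphorylation 0 were higher and 1 lower (median -0.03). Odorant binding proteins, carriers of odorants and other small ligands, had 5 of 26 members higher and 1 lower, with a median of 0.00.

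The Polycomb genes themselves were nearly level. Pcl measured 169, 161 and 173 in WT and 204, 194 and 166 in Pcl libraries, which overlapped (log2 ratio 0.17, SE 0.10, limma adjusted p = 0.43). The files count reads over the whole gene and the mutants keep an intact allele, so this level is no check of the deletion. All 9 PRC2 members lay between -0.12 and 0.25, 0 past 1.5-fold and 0 called, E(z) at 180 and 174 and Su(z)12 at 245 and 225 among them. Of 13 PRC1 and PhoRC members pho, which encodes the DNA-binding subunit, was called, with 387, 425 and 369 in WT and 299, 341 and 272 in Pcl libraries (log2 ratio -0.37, SE 0.09, limma adjusted p = 0.0092, up to 0.069 with a library left out). None of the 5 homeotic genes among the members was past 1.5-fold or called.

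Genes annotated to H3K27me3 peaks in muscle of 3-day-old flies were taken from the copy of the study's supplement used here, which held fewer names than the study counts, and 921 of them were found in the table. Among the 337 that were members 3 were at least 1.5-fold higher and 7 lower, 2.97% in all beside 3.67% of all members, with a median of -0.03. Of 302 tested, limma called 5 higher and 9 lower. The largest changes at a mean of at least 50 were Obp99b, given above, amd, a gene of the dopa decarboxylase family (log2 ratio -0.89, limma adjusted p = 0.0043), CG10026 (-0.67, limma adjusted p = 0.00026) and retn, an ARID transcription factor of neurons (-0.52, limma adjusted p = 0.0042).

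Pcl heads lay at least 1.5-fold above all 4 other groups of the set for 14 members and below all of them for 28, together 0.464% of members. The same count was 0.332% for WT, 0.508% for esc, 0.254% for E(z) and 0.851% for Su(z)12 heads. PGRP-SC2, fit, AttA and Cyp6a17 were on the high side, and CG17386, CG10924, CG11893, CG14329 and Cyp6a2 on the low side. CG11893 measured 221, 111 and 178 in WT and 60.8, 50.3 and 49.7 in Pcl libraries (log2 ratio -1.67, SE 0.18, limma adjusted p = 6.5e-06). CG14329 measured 125, 119 and 91.8 in WT and 36.3, 38.3 and 42.5 in Pcl libraries (log2 ratio -1.52, SE 0.15, limma adjusted p = 2.5e-06). A limma fit of Pcl against the mean of esc, E(z) and Su(z)12 called 82 members higher (1.07%) and 191 lower (2.5%). Without the Su(z)12 library that stood apart, the calls were 152 higher and 285 lower.

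The members near Pcl on 2R, the chromosome arm that carries the deletion, were counted apart. Pcl itself was left out of these counts. Within 0.25 Mb 5 of 34 members (14.7%) were past 1.5-fold, within 0.5 Mb 9 of 103 (8.74%) and within 1 Mb 13 of 192 (6.77%), beside 4.39% on the rest of 2R and 3.43% on other chromosomes. Of the 13, 11 were higher and 2 lower. Limma called 18 of 163 tested members within 1 Mb, 29 of 286 (10.1%) within 2 Mb and 74 of 724 (10.2%) within 5 Mb. On the rest of 2R, beyond 1 Mb, it called 100 of 1362 (7.34%), and on other chromosomes 371 of 6122 (6.06%). The higher share of limma calls was therefore not confined to the 1 Mb window. The same genes of the 1 Mb window were past 1.5-fold for 5.21% in esc, 4.17% in E(z) and 4.17% in Su(z)12 heads, for 8.33% in Pcl Su(z)12 heads and 9.38% in Pcl muscle, and for 3.65% and 5.21% between WT groups. Neighbouring genes are often expressed together, and no test was made of these shares.

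**Figure D4:**
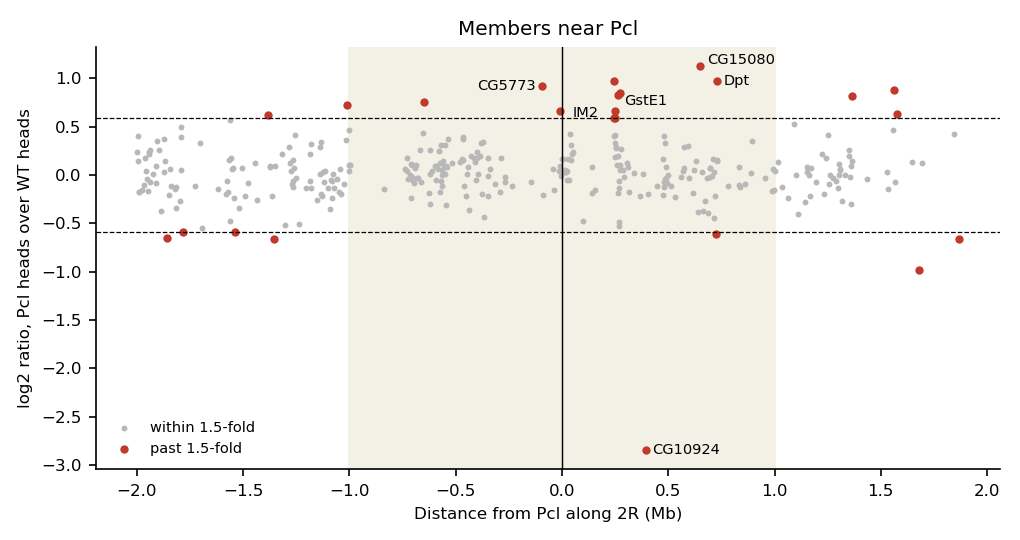
Log2 ratio of Pcl over WT heads for members within 2 Mb of Pcl, by distance along 2R. The shaded band is the 1 Mb window on either side, in which 13 of 192 members (red) were past 1.5-fold, and dashed lines mark 1.5-fold; CG10924 at 0.39 Mb was the lowest and CG15080 the highest.

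Several genes named above lie in this window, CG10924 at 0.39 Mb and Dpt at 0.73 Mb among them. Chosen after their values were seen, the Bomanin genes, short secreted effectors of the Toll pathway, sit at 0.25 Mb. IM2 had means of 951 and 1506 (log2 ratio 0.66, not tested) and IM23 libraries of 405, 528 and 310 in WT and 481, 672 and 718 in Pcl heads, which overlapped (0.59, SE 0.14, limma adjusted p = 0.01). The glutathione transferases of the same interval went both ways, GstE1 at 672 and 1193 (log2 ratio 0.83, not tested), GstE8 at 64.0 and 115 (0.85, SE 0.15, limma adjusted p = 0.0009) and GstE7 at 95.5 and 66.3 (-0.53, SE 0.15, limma adjusted p = 0.039). CG5773, at -0.09 Mb, was higher in every Pcl comparison, with log2 ratios of 0.92 in Pcl heads, 0.93 in Pcl muscle (limma adjusted p = 5.6e-05) and 0.58 in Pcl Su(z)12 heads (limma adjusted p = 0.0078).

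The members past 1.5-fold were then looked up in the comparisons that share no library with Pcl heads. In Pcl muscle, where 3.6% of genes were past 1.5-fold, 234 of the members could be measured and 203 (86.8%) had the same sign as in heads, against 60.9% over all members. Of these, 75 were past 1.5-fold in the same direction and 0 in the opposite one. Over 8393 members measured in both, 187 were past 1.5-fold in muscle with the same sign as in heads and 47 with the opposite one. Of the genes called by limma in heads, 419 were tested in muscle, and 365 of them had the same sign there. In muscle, where limma called 2.98% of genes, 95 of the 419 were called in the same direction and 0 in the opposite one. CG11893 (log2 ratio -2.17, limma adjusted p = 8.7e-08), CG42260 (-1.22, limma adjusted p = 0.0059; in heads -0.71 and -0.57 against the other WT groups), Nmdmc (-0.91, limma adjusted p = 0.001) and Cyp6a17 (0.78, limma adjusted p = 0.014) were among them.

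In Pcl Su(z)12 heads, where 4.28% of genes were past 1.5-fold, 225 of 325 members (69.2%) had the same sign, against 56.8% over all members. There 77 were past 1.5-fold in the same and 17 in the opposite direction. Over 9037 members measured in both, these counts were 224 and 77. Limma called 3.6% of genes there. Of 422 genes called in Pcl heads and tested there, 304 had the same sign. Of the 422, 75 were called in the same direction and 11 in the opposite one. Crg-1, a forkhead gene named for its circadian regulation, had the highest log2 ratio of all members, 5.48, with libraries of 2.71, 0.00 and 0.00 in WT and 36.3, 35.9 and 48.5 in Pcl heads. It was named after its values were seen and reached the minimum mean through its Pcl level. The WT mean rests on 3 reads in 1 library, and the counting interval of the ratio was 3.76 to 7.20. The log2 ratio was 2.20 with a pseudocount of 10, and 2.93 and 3.43 against the WT groups of esc E(z) and of Pcl Su(z)12. The gene was higher in Pcl Su(z)12 heads as well (log2 ratio 4.10, limma adjusted p = 3.6e-05). Its level was 68.9 in esc, 26.5 in E(z) and 13.2 in Su(z)12 heads.

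**Figure D5:**
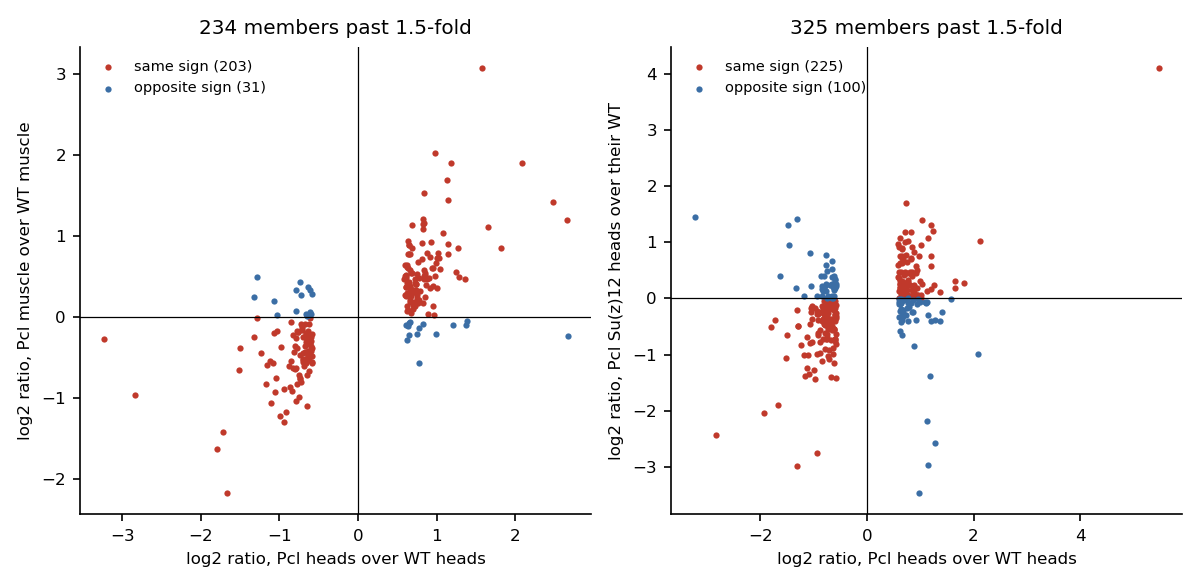
Log2 ratios of the members past 1.5-fold in Pcl heads (x axis) against their log2 ratio in Pcl muscle (left, 234 members) and in Pcl Su(z)12 heads (right, 325 members). Red points share the sign, 203 and 225 of them, and blue points do not.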

How the data were processed

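mRNA-seq libraries of male heads were made by the authors from poly(A) RNA, aligned with STAR to dm6, counted per gene with HTSeq without strand and normalized with DESeq. Deposited tables held normalized counts (signal) as means over 3 libraries a group, and columns with the authors' fold change, log2 fold change and p-value, which were not used. Where the digits of a mean left 1 set of whole counts, or 1 set within a window, library counts were read from it (7648 members, 84.5%). The window kept each library within a set distance of its group mean, so it limits the spread that limma measures. It was not needed in either group for 5823 of these members. The plan ran a test only with 95% of members read, so the limma tests were added after seeing the data. They used limma 3.58.1 (R 4.3.3) on log2(count over size factor + 1), two-sided, with Benjamini-Hochberg adjustment over all tested members. A check on simulated data gave all genes the same variability beyond counting error. It therefore does not cover genes whose libraries lay far apart. Printed log2 ratios are of group means, SEs are from limma, and counting intervals (95%) cover counting error only. Replicate numbers could not be assigned to the libraries read. Members past 1.5-fold were counted without a test. Named genes were Pcl and PRC2 subunits, Tpi, Pgi, the 15 largest rises and falls with a mean of at least 50, and the 4 largest changes a list at that mean. Others, among them Crg-1, the Hsp70 copies, Hsc70-3, Hsc70-4, DnaJ-1, l(2)efl, Hsf, chaperonin and co-chaperone genes and those near Pcl, were named after their values were seen. The members and lists were chosen with earlier results of these data known. Promoter sequences came from the RefSeq Release 6 genome. Reads of near-identical copies (AttA and AttB, Hsp70, GstE and Turandot genes) may be split arbitrarily.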

Additional observations from a re-analysis of the deposited data

Results flagged for a closer look

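In 4 genes that rose in Pcl heads, the 3 Pcl Su(z)12 head libraries moved the opposite way from their own WT. The log2 ratios in Pcl Su(z)12 heads were -0.98 for PGRP-SC2 (limma adjusted p = 0.1), -3.46 for Dpt (limma adjusted p = 0.0027), -2.19 for Dro (limma adjusted p = 5.2e-05) and -2.58 for CG4962 (limma adjusted p = 3.6e-05), against 2.08, 0.98, 1.13 and 1.27 in Pcl heads. The difference between the comparisons was not tested.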

How the results depend on the processing

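The 163 higher and 169 lower members became 84 and 68 with a mean of at least 50, 715 and 793 with no minimum and a pseudocount of 1, 102 and 89 with a pseudocount of 10, 39 and 35 at 2-fold, 268 and 318 against the WT of esc E(z), and 62 and 47 where the counting interval had to lie beyond 1.5-fold. Against the WT of Pcl Su(z)12, 256 were lower. With that control the median was 0.81 for heat shock proteins and 1.40 for antimicrobial peptides. For cytochrome P450 genes it was -0.16 with a mean of at least 50 and -0.21 against the WT of esc E(z). The 42 genes that set Pcl apart from all other groups became 19 with a mean of at least 50 and 8 at 2-fold. Against the WT of esc E(z) and of Pcl Su(z)12 the log2 ratio reversed for TotX (-1.21 and -0.85), per (-0.17 and -0.28) and Clk (0.22 and 0.06), and against the latter for tim (-0.20) and vri (-0.42). The cause was not tested. For 85 named genes a move was set against the spread between replicates. Where libraries could not be read, it was set against counting error alone, which leaves that spread out. Centring shifted each log2 ratio by only -0.0006, too little to move any of the 85 by more. With a pseudocount of 10, 82 moved by less. Against the WT of esc E(z) only 31 did (51 moved by more, 3 reversed), and against that of Pcl Su(z)12 28 (52 and 5). By this mixed measure most values moved or reversed with the control.

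The 228 higher and 261 lower limma calls ranged from 148 to 213 and from 156 to 217 with 1 library left out. Among the 5823 uniquely read genes they were 108 (1.85%) and 166 (2.85%), against 2.98% and 3.41% over all tested members. In a fit of 15 head libraries they were 115 and 116, and both fits were chosen after seeing the data. Against the other mutants, the 82 higher calls became 152 without Su(z)12 library 1 and 166 against esc and E(z) only. Leaving out 1 library, 3 to 11 antimicrobial peptides and 1 to 3 cytochrome P450 genes were higher. No paired analysis was possible because the libraries read from the means carry no replicate number.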
